A study of Mus musculus with 4 samples.

Results

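Collagen chain genes encode the polypeptides that wind around each other into the triple helices of collagen, the main structural protein of extracellular matrix. All genes with a symbol made of Col, a type number, the letter a and a chain number, and with a value above 0 in any library, were taken from the deposited table of retinal RNA sequencing. The table paired 44 of its 52636 genes with such a symbol, and all 44 were above 0. They fell into 11 fibrillar, 8 basement membrane and 6 type VI chains and 19 others. Libraries came from retinas of 3-week-old mice, 2 labelled WT and 2 labelled Q344X, a mutation of the rod visual pigment gene known from autosomal dominant retinitis pigmentosa. How the allele was engineered, its copy number, and the strain, sex and litter of the mice are not stated in the labels. No treatment is named for either group. The number of animals is in doubt: the design text began with 3 per group and kept 2 per group after low RNA quality and outliers led to exclusions, whereas the extraction protocol gives 3 Q344X and 2 WT mice. No label ties a library to an animal or says whether animals were pooled, so p-values reflect only the scatter among the 4 libraries, which may be technical.

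As background, fibrillar collagens form the banded fibrils of tissue and, with types II, IX and XI, those of the vitreous gel next to the retina. Type IV chains form the sheet of basement membranes, which in the eye line the inner retinal surface, the vessels, the pigment epithelium and the lens capsule. Type VI chains form beaded microfilaments beside basement membranes. The other types decorate fibrils, form short-chain networks or span the plasma membrane. Retinitis pigmentosa is a loss of photoreceptors, and collagen genes are transcribed mainly by glia, vessels, pigment epithelium and supporting tissue.

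Values are normalized counts, that is, gene counts divided by the authors' size factor for each library, and pairs of values give replicate 1 and then replicate 2 of a genotype. Levels of different genes are compared only per kilobase (kb) of annotated exon. A log2 fold change is the difference Q344X minus WT in log2(normalized count + 1), given with its standard error (SE). The words rose and fell are used for genes with an adjusted p under 0.05 in limma, Benjamini-Hochberg adjusted over all 16833 genes with a mean of at least 10 normalized counts. All 44 chains met that minimum. In all, 18452679 and 19706573 reads were counted in genes in WT and 19034261 and 19346580 in Q344X, and 0.160% to 0.192% of the normalized counts in each library belonged to the 44 chains.

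Some values of the libraries bear on the collagen results. The 10 lens genes of a marker list, 6 of them crystallins, summed to 223505 and 276539 normalized counts in WT and to 224557 in Q344X replicate 1, but to 6161 in Q344X replicate 2. Each of the 10 was lowest in that library; Mip, the main lens fibre membrane protein, was at 5965 and 9527 in WT and at 5297 and 83.5 in Q344X. Rod genes summed to 469217 and 507824 in WT and to 267671 and 286833 in Q344X, with 2 of 7 lower, Gnat1 and Pde6a. Gnat1 alone was at 179576 and 204223 in WT and at 39731 and 37666 in Q344X. The other rod genes did not pass: Sag, Nrl and Cnga1 overlapped between the genotypes and Pde6b was below WT in both Q344X libraries. Nr2e3 was above WT, at 12797 and 15847 in WT and at 18174 and 22588 in Q344X. As background for the lists of this paragraph, 9.1% of all tested genes were lower in Q344X (limma, adjusted p under 0.05). Of 9 fibroblast genes 5 were tested and 2 were lower in Q344X, Fbln1 (1384 and 1371 in WT, 273 and 467 in Q344X) and Prrx1 (64.5 and 64.2 in WT, 25.7 and 25.9 in Q344X). The fibroblast list summed to 4935 and 5127 in WT and to 4969 and 5602 in Q344X, most of it Thy1, a gene that neurons also express; Pdgfra was at 689 to 970, Dcn at 6.72 to 46.1, and Lum and Dpt at 0 to 3.12. The 7 cartilage and sclera genes summed to 271 and 280 in WT and to 193 and 270 in Q344X, most of it Sox9, which Müller glia also express. Cilp was at 58.2 and 49.1 in WT and at 26.7 and 8.64 in Q344X without passing (adjusted p = 0.0845, limma), Comp at 4.95 to 13.0, and Acan, Matn1, Matn3 and Chad at 0 to 5.01. Müller glia genes summed to 94027 to 112209, with 2 of 8 lower in Q344X. Long transcripts were lower in replicate 2 of both genotypes. Among the 22 collagen genes with more than 7542.5 bases of exon, replicate 2 was below replicate 1 in 19 in WT and in 17 in Q344X, against 15 and 10 among the 22 shorter ones. The median log2 fold change between genotypes was -0.20 over the longer and 0.83 over the shorter collagen genes, and -0.09 and 0.05 over all tested genes split at the same length. The part of lens, rods, fibroblasts, cartilage and transcript length in the results was not tested.

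The collagen genes moved in both directions, and their summed normalized counts overlapped between the genotypes. In Q344X retina 13 of the 44 chains rose and 7 fell, which is 29.5% and 15.9%, where 5.46% and 9.1% of all tested genes rose and fell (limma, adjusted p under 0.05). A further 24 did not pass. In 32 of the 44, both Q344X values lay on one side of both WT values (72.7%, against 63.1% of all tested genes). The median log2 fold change was 0.40 over the chains and 0.02 over all tested genes. Summed over the 44 chains, the level was 36857 and 31656 normalized counts in WT and 35300 and 34472 in Q344X, values that overlap. This sum is not divided by exon length, so longer genes weigh more in it, and it does not describe a total per kb. In bulk tissue, fewer cells of a type and less RNA per cell cannot be told apart.

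The make-up of the collagen total per kb of exon differed between the genotypes. Per kb of exon, the 6 type IV chains held 53.4% and 51.9% of the collagen total in WT and 23.3% and 15.2% in Q344X. The 3 type IX chains held 18.5% and 19.6% in WT and 44.8% and 53.3% in Q344X. In WT the highest chain per kb was Col4a1, at a mean of 1235 normalized counts per kb, followed by Col4a2 at 850 and Col9a1 at 633. In Q344X it was Col9a1, at 2277 normalized counts per kb, with Col23a1, Col4a1 and Col4a2 next at 462, 459 and 458, levels too close to order. Under a test of every gene above 0 in any library, 2 collagen genes rose (Col9a1 and Col8a1) and 1 fell (Col6a3), where 0.496% and 1.24% of 30816 genes did. By edgeR 13 chains rose and 7 fell, against 5.57% and 9.1% of all tested genes. With 1 library left out, 15 chains rose and 12 fell without Q344X replicate 1 (14% and 17.7% of all tested genes), 16 and 8 without Q344X replicate 2 (7.39% and 11.3%), 11 and 3 without WT replicate 1 (2.3% and 3.96%), and 6 and 9 without WT replicate 2 (2.92% and 5.7%).

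**Figure D1:**
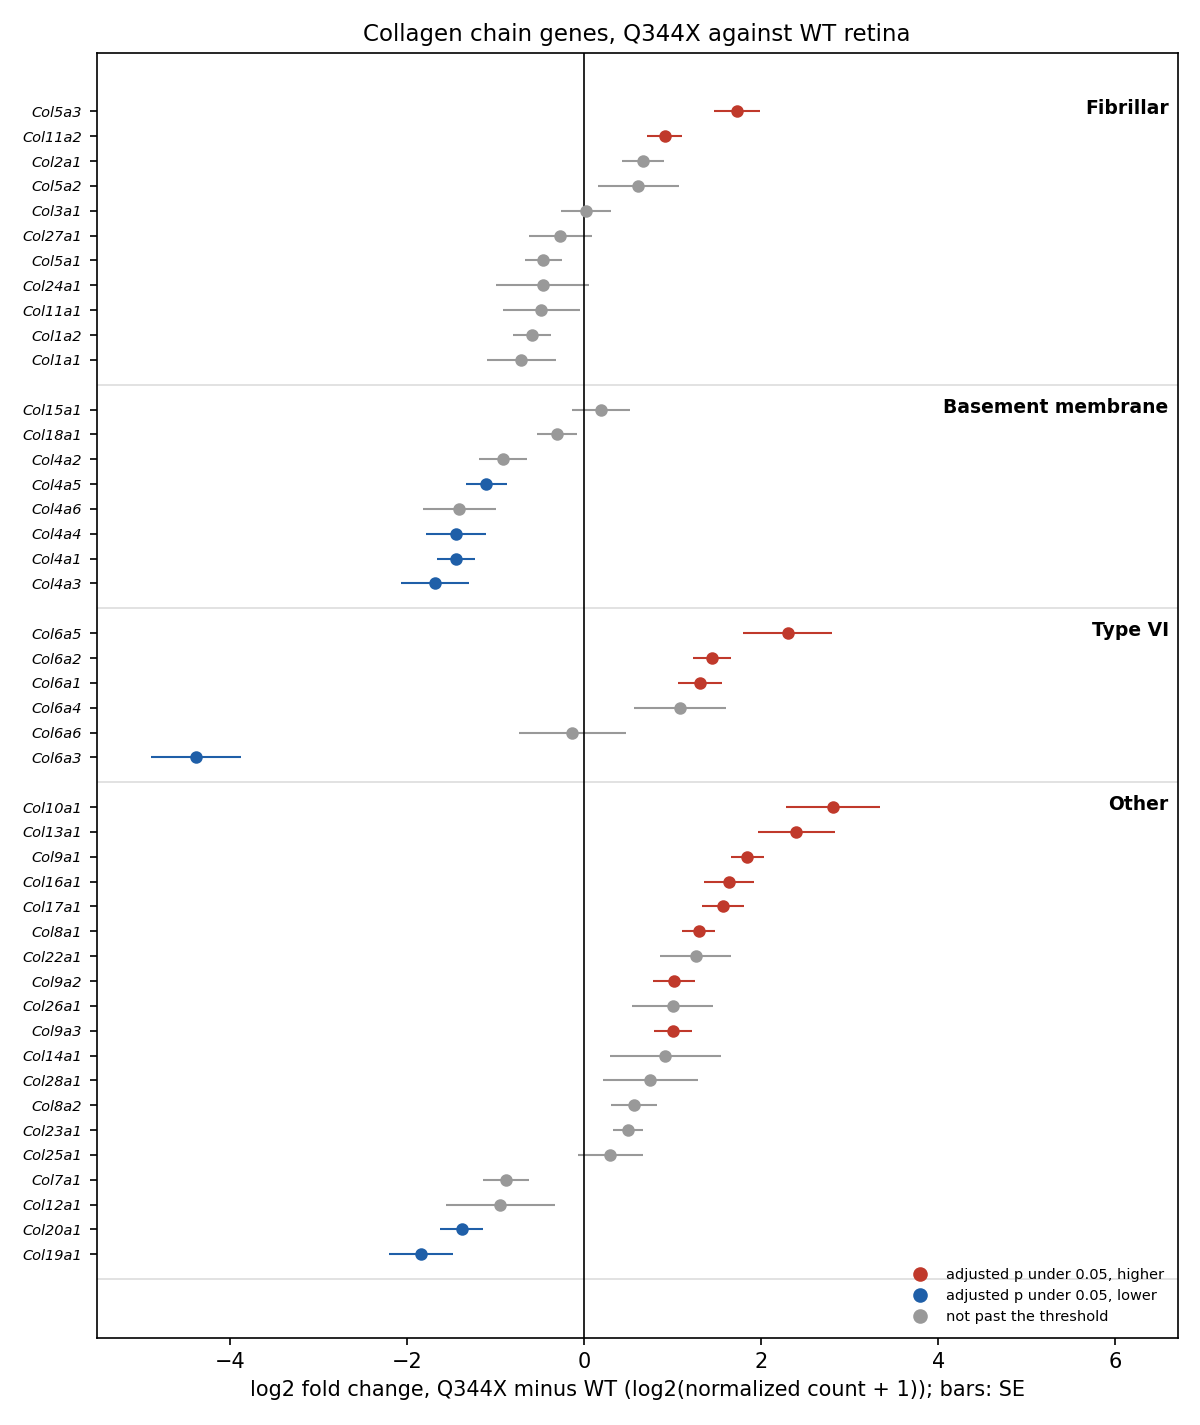
Log2 fold change (x axis, Q344X minus WT, log2(normalized count + 1)) of each of the 44 collagen chain genes by group, with bars for the SE; red and blue mark genes with adjusted p under 0.05 that were higher or lower and grey those not past it. Type IV chains lie left of 0, Col6a3 lies farthest left at -4.38 and Col10a1 farthest right at 2.81.

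The start regions of the genes with the clearest patterns come first, because the type IV genes lie in head-to-head pairs and the type VI and type IX genes moved in different directions. RefSeq start windows, 250 bases before and 50 after the start, on GRCm38 (mm10), were found for 35 of the 44 genes, in 38 windows. Shown are the longest stretches before the start that hold no annotated exon (GENCODE release M21), 5′ to 3′ on the strand of the named gene. Capitals mark a CCAAT box, a GC box spelled GGGCGG, or a TATA box spelled TATAAA, on either strand. A GC box on the other strand reads as its reverse complement, and no 2 matches overlap in these stretches. The first is the whole gap of 71 bases between Col4a4 and Col4a3 (chr1:82586850-82586920, minus strand), a further 2 precede Col4a5 (chrX:141475169-141475384, plus) and Col4a6 (chrX:141474077-141474326, minus), 3 more precede Col6a1 (chr10:76726169-76726294, minus), Col6a2 (chr10:76623631-76623880, minus) and Col6a3 (chr1:90843972-90844221, minus), and the last precedes Col9a1 (chr1:24177360-24177609, plus).
Col4a4: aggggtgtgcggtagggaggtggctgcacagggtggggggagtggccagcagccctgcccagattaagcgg
Col4a5: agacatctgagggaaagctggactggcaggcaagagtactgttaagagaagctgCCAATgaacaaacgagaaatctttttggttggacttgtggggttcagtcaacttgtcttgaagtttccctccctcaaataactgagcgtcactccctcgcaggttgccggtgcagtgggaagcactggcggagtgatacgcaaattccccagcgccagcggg
Col4a6: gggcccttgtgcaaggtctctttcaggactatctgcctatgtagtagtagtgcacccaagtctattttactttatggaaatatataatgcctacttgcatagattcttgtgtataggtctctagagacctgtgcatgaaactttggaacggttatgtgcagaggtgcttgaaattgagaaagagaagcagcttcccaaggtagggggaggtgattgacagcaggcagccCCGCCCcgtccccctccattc
Col6a1: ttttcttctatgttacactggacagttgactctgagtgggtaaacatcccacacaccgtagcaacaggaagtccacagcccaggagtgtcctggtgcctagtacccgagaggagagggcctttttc
Col6a2: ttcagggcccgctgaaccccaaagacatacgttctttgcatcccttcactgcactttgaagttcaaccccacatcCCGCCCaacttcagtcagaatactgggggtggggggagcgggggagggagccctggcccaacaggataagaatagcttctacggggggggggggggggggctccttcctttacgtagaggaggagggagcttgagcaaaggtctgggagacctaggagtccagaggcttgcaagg
Col6a3: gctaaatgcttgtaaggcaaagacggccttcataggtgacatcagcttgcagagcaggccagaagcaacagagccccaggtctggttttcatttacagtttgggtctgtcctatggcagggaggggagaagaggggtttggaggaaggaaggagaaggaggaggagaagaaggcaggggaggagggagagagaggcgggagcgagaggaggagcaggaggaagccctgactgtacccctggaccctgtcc
Col9a1: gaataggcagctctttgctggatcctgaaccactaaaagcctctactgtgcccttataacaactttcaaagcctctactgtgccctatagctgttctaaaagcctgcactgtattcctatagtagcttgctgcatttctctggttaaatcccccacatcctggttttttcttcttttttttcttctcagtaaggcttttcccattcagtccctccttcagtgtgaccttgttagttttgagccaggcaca

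Over whole windows, GGGCGG on either strand was present in 23 of the 38 collagen windows, or 60.5%, and in 35.6% of 32817 windows of the same length. CCAAT was present in 34.2% against 37.4%, and TATAAA in 13.2% against 13.6%. Of the stretches shown, Col4a5 held 1 CCAAT, and Col4a6 and Col6a2 each held 1 GC box. Col4a1 and Col4a2 have no stretch to show, because annotated exons cover all bases of their windows before the start. Both of these windows held CCAAT and GGGCGG, so the stretches shown do not stand for all type IV genes. Col9a1 has another RefSeq start, at chr1:24195203, whose window held CCAAT and whose stretch of 234 bases is not shown. Col6a2 has another at chr10:76623404, with a stretch of 24 bases. Gene-level counts do not show which start was used. A match is a description of the letters only.

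The type IV chains of basement membrane were lower in Q344X throughout. Col4a1, Col4a3, Col4a4 and Col4a5 fell, 4 of 6 chains, and for all 6 both Q344X libraries lay below both WT libraries, where 9.1% of all tested genes fell (limma) and 31.7% had both Q344X libraries below both WT libraries. The 6 genes lie as 3 head-to-head pairs, Col4a1 with Col4a2 on chromosome 8, overlapping by 22 bases, Col4a4 with Col4a3 on chromosome 1, 71 bases apart, and Col4a6 with Col4a5 on the X chromosome, 1308 bases apart.

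Col4a1 (ENSMUSG00000031502, chromosome 8, 11198423 to 11312826), whose product with that of Col4a2 makes the type IV network found in nearly all basement membranes, was at 9566 and 8866 normalized counts in WT and at 3956 and 2891 in Q344X. It fell by 1.45 ± 0.21 on the log2 scale (SE, adjusted p = 0.0153, limma), or 2.69-fold between the group means. Its partner Col4a2 (chromosome 8, 11312805 to 11449287) was at 6350 and 4908 in WT and at 3681 and 2379 in Q344X. That difference, -0.92 ± 0.27, did not pass (adjusted p = 0.0720, limma), although every Q344X value was below every WT value.

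The Col4a3, Col4a4 and Col4a5 products assemble with each other into the network of specialised basement membranes such as that of the kidney filter, and their genes are those mutated in Alport syndrome. Col4a3 (chromosome 1, 82586921 to 82722059) was at 1632 and 1306 normalized counts in WT and at 678 and 305 in Q344X. Its log2 fold change was -1.68 ± 0.39 (adjusted p = 0.0412, limma). Col4a4 (chromosome 1, 82448423 to 82586849), across the gap of 71 bases, was at 1108 and 931 in WT and at 523 and 266 in Q344X, a log2 fold change of -1.44 ± 0.34 (adjusted p = 0.0435, limma). In both genes Q344X replicate 2 was the lowest library.

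Col4a5 (X chromosome, 141475385 to 141689234) was at 1739 and 1339 normalized counts in WT and at 814 and 617 in Q344X, and fell by 1.11 ± 0.23 on the log2 scale (adjusted p = 0.0330, limma). Col4a6, its neighbour, which joins Col4a5 in the basement membranes of smooth muscle and epithelia, was at 804 and 580 in WT and at 390 and 169 in Q344X. Its log2 fold change of -1.41 ± 0.42 did not pass (adjusted p = 0.0730, limma), with the Q344X libraries further apart than those of WT on the log2 scale.

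Each type IV gene was lowest in Q344X replicate 2, the library with few lens transcripts. With Q344X replicate 2 left out, the log2 fold changes were -1.22 for Col4a1, -0.60 for Col4a2, -1.11 for Col4a3, -0.96 for Col4a4, -0.91 for Col4a5 and -0.81 for Col4a6, and 5 of the 6, all but Col4a2, were past the threshold in limma. The lens sum of the remaining Q344X library, 224557, lay between those of the WT libraries, and these values rest on 1 Q344X library. The part of lens tissue in the type IV values was not tested. As limits, leaving out WT replicate 1 ended the calls of Col4a4 and Col4a5 (adjusted p = 0.0769 and 0.183, limma), and 75th percentile scaling those of Col4a3 and Col4a4 (0.0501 and 0.0526).

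**Figure D2:**
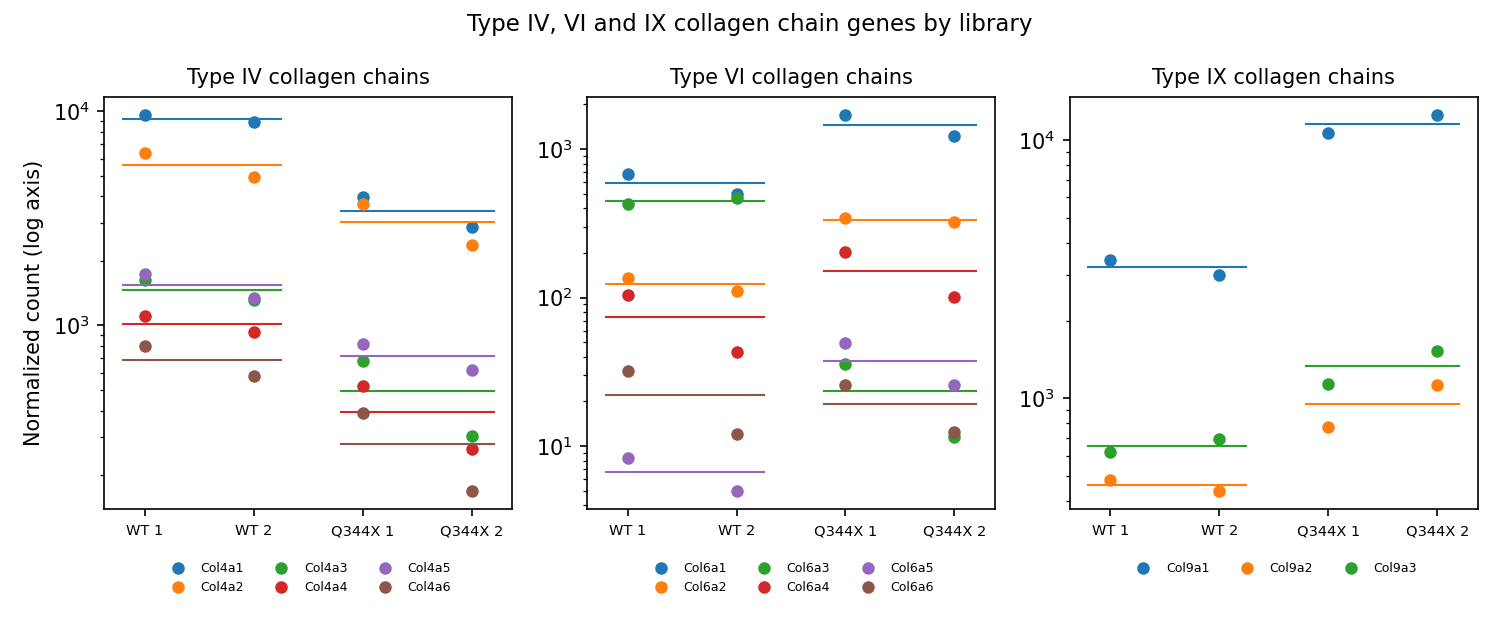
Normalized counts (y axis, log scale) of the type IV, type VI and type IX chain genes in each library (x axis), with points for libraries and lines for the group means. All 6 type IV genes are lower in both Q344X libraries, the 3 type IX genes are higher, and Col6a3 drops while Col6a1 and Col6a2 are higher.

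**Figure D3:**
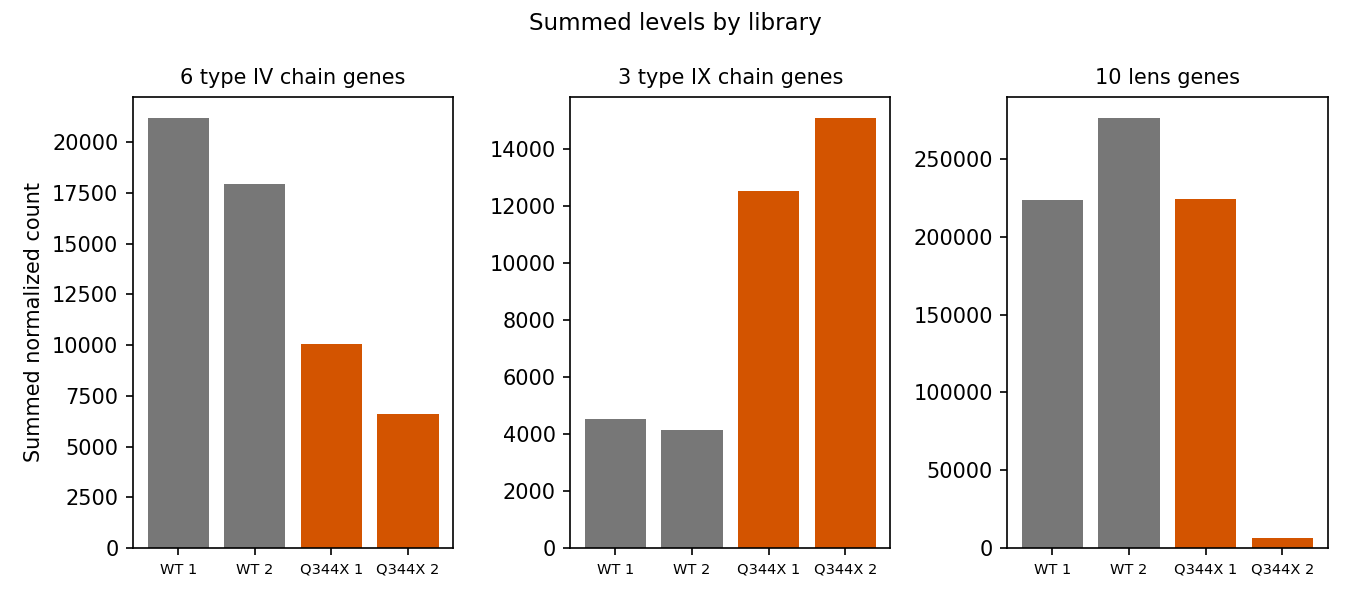
Summed normalized counts (y axis, from 0) of the 6 type IV chain genes, the 3 type IX chain genes and the 10 lens genes in each library (x axis), WT in grey and Q344X in orange. The lens sum is low only in Q344X replicate 2, at 6161. The type IV sum is lower and the type IX sum higher in both Q344X libraries. The part of lens tissue in these sums was not tested.

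The remaining basement membrane chains, Col18a1 and Col15a1, encode collagens that sit at the edge of basement membranes and release fragments such as endostatin. Col18a1, needed for normal vitreous and retinal development, was at 1732 and 1869 normalized counts in WT and at 1217 and 1742 in Q344X, so the genotypes overlapped (-0.31 ± 0.23). Col15a1 was at 35.4 and 27.1 in WT and at 32.7 and 38.4 in Q344X (0.19 ± 0.33). Neither passed (adjusted p = 0.378 and 0.712, limma).

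Type VI chains changed in opposite directions. Col6a1, Col6a2 and Col6a5 rose, Col6a3 fell, and Col6a4 and Col6a6 did not pass. Of all tested genes 5.46% rose and 9.1% fell (limma), and a group of 6 gives a coarse share. As background, the Col6a1, Col6a2 and Col6a3 products join in a single molecule, and those of Col6a4, Col6a5 and Col6a6 resemble that of Col6a3.

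Col6a3 (ENSMUSG00000048126, chromosome 1, 90765923 to 90843971) was at 425 and 468 normalized counts in WT and at 35.6 and 11.5 in Q344X, with no overlap. Its log2 fold change was -4.38 ± 0.51 (adjusted p = 0.00901, limma), an 18.95-fold lower group mean, and its adjusted p stayed under the threshold in every alternative fit. Col6a1 (chromosome 10, 76708792 to 76726168) was at 680 and 496 in WT and at 1691 and 1230 in Q344X. It rose by 1.31 ± 0.25 on the log2 scale (adjusted p = 0.0277, limma). Col6a2 (chromosome 10, 76595762 to 76623630), 85161 bases away on the same strand, was at 135 and 110 in WT and at 345 and 325 in Q344X, a rise of 1.45 ± 0.21 (adjusted p = 0.0154, limma).

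The ratio between partners shows the change within each library. Per kb of exon, the log2 ratio of Col6a3 to Col6a1 was -2.13 and -1.53 in WT and -7.02 and -8.19 in Q344X. That of Col6a1 to Col6a2 was 3.26 and 3.10 in WT and 3.22 and 2.85 in Q344X, values that overlapped. An exact permutation test of 2 against 2 libraries cannot give a p under 0.33, which is its two-sided value for the first ratio.

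Col6a5 was rare, at 8.32 and 5.01 normalized counts in WT and 49.5 and 25.9 in Q344X, a log2 fold change of 2.30 ± 0.50 (adjusted p = 0.0366, limma). Col6a4 and Col6a6 flank it on chromosome 9, with 28810 and 27917 bases between the genes. Col6a4 was at 104 and 43.1 in WT and at 204 and 100.8 in Q344X (1.09 ± 0.52), and Col6a6 at 32.2 and 12.03 in WT and at 25.7 and 12.5 in Q344X (-0.13 ± 0.61), both with overlap. Leaving out WT replicate 2 ended the calls of Col6a1, Col6a2 and Col6a5 (adjusted p = 0.0884, 0.0517 and 0.0543, limma), and leaving out Q344X replicate 1 that of Col6a5 (0.0589).

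Type IX genes rose together. The 3 chains form a heterotrimer that coats fibrils of type II collagen, in cartilage and in the vitreous. All 3 passed, and no WT library reached the lower Q344X library. Of all tested genes 5.46% rose (limma), and 63.1% had no overlap between the genotypes in either direction.

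Col9a1 (ENSMUSG00000026147, chromosome 1, 24177610 to 24252684) was at 3426 and 2993 normalized counts in WT and at 10624 and 12451 in Q344X. It rose by 1.84 ± 0.19 on the log2 scale (adjusted p = 0.00682, limma), with no overlap, and passed in every alternative fit. Col9a2 (chromosome 4, 121039385 to 121055322) was at 484 and 439 in WT and at 776 and 1124 in Q344X, a rise of 1.02 ± 0.23 (adjusted p = 0.0416, limma). For Col9a3 (chromosome 2, 180597790 to 180622189) the values were 620 and 694 in WT and 1138 and 1519 in Q344X, a rise of 1.002 ± 0.212 (adjusted p = 0.0343, limma).

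The chains of type IX did not rise by the same amount. Per kb, the log2 ratio of Col9a1 to Col9a2 was 2.11 and 2.06 in WT and 3.06 and 2.76 in Q344X, and that of Col9a3 to Col9a1 was -2.07 and -1.71 in WT and -2.83 and -2.64 in Q344X (exact permutation p = 0.33 for each, the smallest possible). Of the bases in exons of Col9a3, 6.07% lie in exons of Tcfl5 on the other strand, and whether reads were counted by strand is not known here. The calls of Col9a2 and Col9a3 were lost on leaving out WT replicate 1 (adjusted p = 0.116 and 0.178, limma) or WT replicate 2 (0.150 and 0.0878).

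A neighbour of Col9a1 went the other way. Col19a1 (chromosome 1, 24261890 to 24587472), a fibril-associated collagen known from neurons and muscle, lies tail to tail with Col9a1, 9205 bases away. It was at 189 and 124 normalized counts in WT and at 54.5 and 32.6 in Q344X, and fell by 1.84 ± 0.36 on the log2 scale (adjusted p = 0.0288, limma). Without WT replicate 1 its adjusted p was 0.0824.

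Among the 11 fibrillar chains 2 rose, 0 fell and 9 did not pass (limma; 0 fell by edgeR, and 1 was lower at an unadjusted p under 0.05), with a median log2 fold change of -0.27. The share that rose was 18.2%, where 5.46% of all tested genes rose and 9.1% fell (limma). Col5a3, a type V chain, was at 105 and 158 normalized counts in WT and at 448 and 410 in Q344X, a rise of 1.72 ± 0.26 (adjusted p = 0.0158, limma). Col11a2, a type XI chain that joins type II fibrils, was at 231 and 195 in WT and at 391 and 408 in Q344X, a rise of 0.91 ± 0.20 (adjusted p = 0.0370, limma), a call lost on leaving out WT replicate 1 (0.143) or 2 (0.240).

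Col2a1, the main fibrillar collagen of vitreous and cartilage, had the highest level per kb of the fibrillar genes. It was at 948 and 895 normalized counts in WT and at 1205 and 1781 in Q344X, with no overlap, but the log2 fold change of 0.67 ± 0.23 did not pass (adjusted p = 0.106, limma). Col11a1, which shares the type XI molecule with Col11a2, was at 498 and 250 in WT and at 348 and 182 in Q344X (-0.48 ± 0.44). Per kb, the log2 ratio of Col11a1 to Col11a2 was 0.22 and -0.53 in WT and -1.06 and -2.05 in Q344X (exact permutation p = 0.33).

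Genes of the type I and type III fibrils of connective tissue did not pass. Over the 4 libraries, Col1a2 averaged 26.8 normalized counts per kb, near Col5a1 at 27.7, while Col1a1 averaged 4.04 and Col3a1 9.41. Col1a1 was at 25.0 and 42.1 normalized counts in WT and at 18.8 and 20.2 in Q344X, and Col1a2 at 380 and 418 in WT and at 232 and 301 in Q344X. Both had Q344X below WT without passing (-0.71 ± 0.39 and -0.59 ± 0.22, adjusted p = 0.253 and 0.118, limma). Col3a1 was at 89.4 and 92.2 in WT and at 112 and 75.8 in Q344X, with overlap (0.02 ± 0.28).

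The type V partners Col5a1 and Col5a2 stood at 297 and 248 against 196 and 199 normalized counts, and at 48.9 and 41.1 against 108 and 44.1, WT against Q344X. Their log2 fold changes were -0.46 ± 0.21 and 0.61 ± 0.46, neither past the threshold. Q344X replicate 1 alone was high in Col5a2, and the per-kb log2 ratio of Col5a1 to Col5a2 was 2.78 and 2.77 in WT and 1.04 and 2.35 in Q344X. Col27a1 and Col24a1, fibrillar collagens known from cartilage and bone, had -0.27 ± 0.36 and -0.47 ± 0.53. Col27a1 ranged from 232 to 468 and Col24a1 from 17.3 to 49.9 over the 4 libraries, and replicate 2 was the lower library in both genotypes.

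Of the 19 other chains, 8 rose, 2 fell and 9 did not pass, with a median log2 fold change of 1.002. The shares that rose and fell were 42.1% and 10.5%, against 5.46% and 9.1% of all tested genes (limma). Besides type IX, those that rose were Col8a1, Col16a1, Col17a1, Col13a1 and Col10a1. Col8a1, a short-chain network collagen of vessel walls and of the membranes under corneal endothelium and pigment epithelium, was at 437 and 368 normalized counts in WT and at 967 and 1002 in Q344X. It rose by 1.29 ± 0.19 on the log2 scale (adjusted p = 0.0146, limma), but had 0.0616 without WT replicate 2.

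Its partner Col8a2 was at 237 and 294 in WT and at 324 and 473 in Q344X, a difference of 0.57 ± 0.26 that did not pass (adjusted p = 0.180, limma). Per kb, the log2 ratio of Col8a1 to Col8a2 was 0.08 and -0.48 in WT and 0.78 and 0.28 in Q344X, with no overlap (exact permutation p = 0.33). Col10a1, the short-chain collagen of growth-plate cartilage, was at 2.08 and 5.01 in WT and at 31.7 and 26.9 in Q344X. Its rise of 2.81 ± 0.53 (adjusted p = 0.0264, limma) starts from 2 and 5 reads.

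Collagens that span the membrane include Col13a1, known from the neuromuscular junction, and Col17a1, a hemidesmosome component. Col13a1 was at 8.32 and 18.0 normalized counts in WT and at 68.3 and 70.1 in Q344X (2.40 ± 0.43, adjusted p = 0.0246, limma). Col17a1 was at 67.6 and 55.1 in WT and at 174 and 192 in Q344X (1.57 ± 0.24, adjusted p = 0.0164, limma). In both genes the Q344X libraries were close to each other and above WT.

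Col23a1, the most abundant transmembrane collagen here, was at 1925 and 1836 normalized counts in WT and at 2583 and 2715 in Q344X. It differed by 0.49 ± 0.17 without overlap and did not pass (adjusted p = 0.0960, limma). Col25a1, a transmembrane collagen of neurons, was at 330 and 234 in WT and at 476 and 245 in Q344X (0.30 ± 0.36).

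Fibril-associated collagens moved both ways. Col16a1 was at 61.4 and 49.1 normalized counts in WT and at 147 and 203 in Q344X, and rose by 1.64 ± 0.28 on the log2 scale (adjusted p = 0.0214, limma). Col20a1 was at 515 and 359 in WT and at 167 and 161 in Q344X, and fell by 1.38 ± 0.24 (adjusted p = 0.0229, limma), with 0.123 without WT replicate 1. Col12a1 was at 435 and 166 in WT and at 232 and 83.5 in Q344X (-0.95 ± 0.62), and Col22a1, known from the muscle-tendon junction, at 35.4 and 20.1 in WT and at 79.2 and 53.8 in Q344X (1.26 ± 0.40). Neither passed.

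Of the remaining chains, Col7a1, which forms anchoring fibrils under epithelia, was at 527 and 382 normalized counts in WT and at 280 and 211 in Q344X, a difference of -0.88 ± 0.26 with adjusted p = 0.0707 (limma). Col14a1, Col26a1 and Col28a1 had log2 fold changes of 0.92, 1.002 and 0.75, did not pass, and did not exceed 95.02 normalized counts in any library.

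Ratios were taken for 11 pairs of chains of one collagen type, and in 8 the WT and Q344X values were separate. Levels of single genes were separate for 63.1% of all tested genes, and no such share was taken for ratios of other genes. Col6a3 to Col6a1 had the largest difference of the 11, -5.77 on the log2 scale. The ratio of Col4a1 to Col4a2 was 0.42 and 0.68 in WT and -0.07 and 0.11 in Q344X, and that of Col4a3 to Col4a4 was 0.65 and 0.58 in WT and 0.47 and 0.29 in Q344X. Those of Col4a5 to Col4a6 (1.36 and 1.46 in WT, 1.31 and 2.12 in Q344X) and of Col1a1 to Col1a2 (-3.01 and -2.39 in WT, -2.70 and -2.98 in Q344X) overlapped, as did Col6a1 to Col6a2. Adjusted over the 11 pairs, the smallest p was 0.458 (exact permutation tests, two-sided). Pairs that share a chain, such as the 2 with Col9a1, are not independent.

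**Figure D4:**
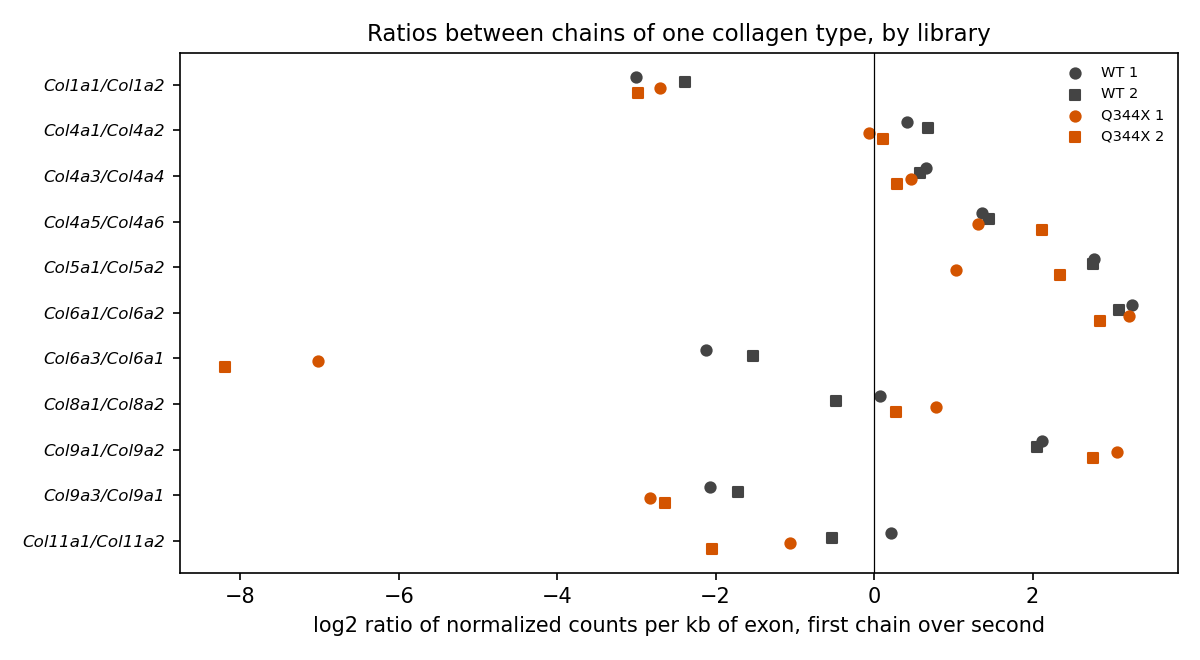
Log2 ratio of normalized counts per kb of exon (x axis) between the chains of each pair (y axis), with 1 point per library, WT in grey and Q344X in orange. The ratio of Col6a3 to Col6a1 separates the genotypes most, with WT between -2.13 and -1.53 and Q344X between -8.19 and -7.02.

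Genes that make, process, bind and degrade collagen were read from 6 lists with 90 genes, of which 79 were tested. Of these, 9 rose and 8 fell, which is 11.4% and 10.1%, against 5.46% and 9.1% of all tested genes (limma). These shares of all tested genes are also the background for each list that follows, and a list of 9 to 18 genes gives a coarse share. The median log2 fold change was 0.06.

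Chains are hydroxylated and folded in the endoplasmic reticulum. Of 18 genes for these steps, 3 rose and 2 fell (16.7% and 11.1%), with a median of 0.04. P4ha1, a catalytic subunit of prolyl 4-hydroxylase, was at 1981 and 1704 normalized counts in WT and at 878 and 732 in Q344X, and fell by 1.19 ± 0.19 on the log2 scale (adjusted p = 0.0187, limma). Colgalt1, a collagen galactosyltransferase, fell by 0.95. P3h3, a prolyl 3-hydroxylase family member, rose by 1.197, Fkbp10 by 0.89 and Ppib by 0.87, the last 2 being foldases. P4hb, the other subunit of the prolyl 4-hydroxylase, had 0.47 ± 0.19, and Mia3, an export receptor for procollagen, 0.35 ± 0.19, neither past the threshold.

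Secreted procollagen is trimmed and crosslinked. Of 12 tested genes of 14, 2 rose and 2 fell (16.7% each way), with a median of -0.28. Lox, lysyl oxidase, was at 22.9 and 23.1 normalized counts in WT and at 74.3 and 108 in Q344X, and rose by 1.91 ± 0.32 on the log2 scale (adjusted p = 0.0194, limma). Bmp1, the procollagen C-proteinase, rose by 0.997 ± 0.173 (adjusted p = 0.0226, limma). Its enhancer Pcolce2 fell by 0.97, and the N-proteinase gene Adamts3 had -1.33 ± 0.33, at the threshold (adjusted p = 0.0496, limma, and 0.0551 by edgeR). Pxdn, which crosslinks type IV collagen, was at 1376 and 1013 in WT and at 1069 and 499 in Q344X (-0.69 ± 0.38), and Loxl1 had -0.77 ± 0.22, neither past the threshold.

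In the list of basement membrane partners, 1 of 17 tested genes rose and 1 fell (5.88% each way), with a median of 0.08. Agrn, the proteoglycan agrin, was at 1524 and 1550 normalized counts in WT and at 3614 and 4022 in Q344X, and rose by 1.31 ± 0.17 on the log2 scale (adjusted p = 0.0112, limma). Hspg2, perlecan, was at 1464 and 1038 in WT and at 657 and 494 in Q344X, and fell by 1.11 ± 0.25 (adjusted p = 0.0399, limma), with 0.221 without WT replicate 1. Nid1, nidogen, which ties type IV collagen to laminin, was at 3132 and 2238 in WT and at 2173 and 653 in Q344X, with the lowest value again in Q344X replicate 2 (-1.15 ± 0.55, adjusted p = 0.195, limma). Sparc, a collagen-binding matrix protein and the most abundant of the list, had 0.11 ± 0.17, and of the 10 tested laminin chain genes 0 passed in limma or edgeR, with 1 higher at an unadjusted p under 0.05.

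Of 12 tested partners of fibrils, 1 rose and 3 fell (8.33% and 25.0%), with a median of -0.81. Prelp, a leucine-rich repeat proteoglycan that binds basement membrane and collagen, was at 900 and 798 normalized counts in WT and at 242 and 207 in Q344X, and fell by 1.92 ± 0.20 on the log2 scale (adjusted p = 0.00685, limma). Tnxb and Fmod fell by 1.71 and 1.37, and Fbn2, a fibrillin, rose by 1.26. Optc, the vitreous proteoglycan opticin, was at 1907 and 1810 in WT and at 1375 and 1756 in Q344X (-0.26 ± 0.20), and Fn1, fibronectin, had 0.48 ± 0.32, neither past the threshold.

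For turnover, 2 of 11 tested genes rose (18.2%) and 0 fell (limma; 0 also by edgeR and at an unadjusted p under 0.05), with a median of 0.35. Mmp14, a membrane-bound collagenase, was at 213 and 228 normalized counts in WT and at 446 and 602 in Q344X (1.23 ± 0.22, adjusted p = 0.0248, limma). Mmp2, a gelatinase that degrades type IV collagen and is activated by the Mmp14 product, was at 84.2 and 84.2 in WT and at 231 and 163 in Q344X (1.19 ± 0.26, adjusted p = 0.0357, limma). The inhibitors Timp3 and Timp2 had -0.01 ± 0.18 and 0.35 ± 0.24. Of 9 tested collagen receptor genes 0 passed in limma or edgeR, and 2 were lower at an unadjusted p under 0.05, with Itgb1 at 0.37 ± 0.19 and Ddr1 at 0.19 ± 0.29. Of the 17 genes called in the 6 lists, 14 lost their call when 1 library was left out; Lox, Agrn and Prelp did not.

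**Figure D5:**
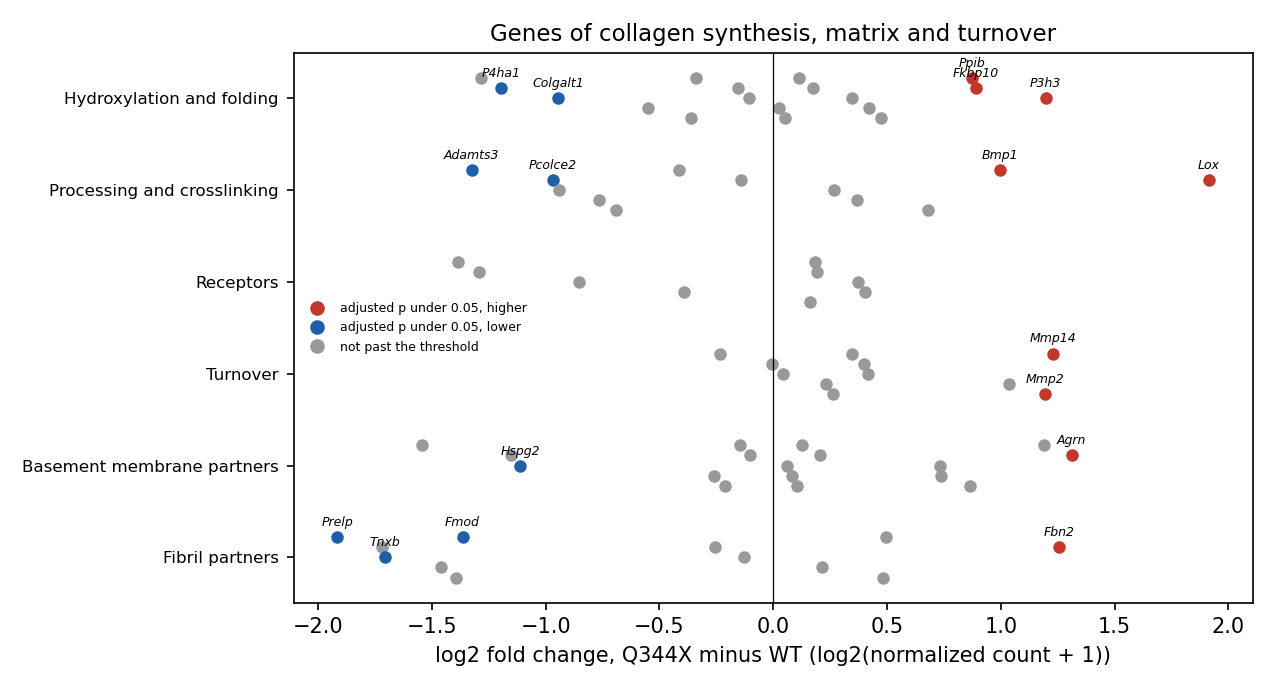
Log2 fold change (x axis, Q344X minus WT, log2(normalized count + 1)) of the 79 tested genes of 6 lists around collagen (y axis), red and blue where adjusted p was under 0.05 and grey otherwise, with names for the called genes only. Lox lies farthest right at 1.91 and Prelp farthest left at -1.92.

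Levels of other cell types' genes were read beside these values, again with 5.46% higher and 9.1% lower over all tested genes. Of 8 endothelial genes 1 rose (Tie1) and 0 fell in limma and edgeR. At an unadjusted p under 0.05 in limma, 4 were higher and 0 lower, and 7 of the 8 log2 fold changes were above 0. The list summed to 5416 and 3650 normalized counts in WT and 7065 and 5237 in Q344X. Most of that was Kdr, at 4105 and 2418 in WT and at 5248 and 3196 in Q344X. Of 9 pericyte and smooth muscle genes 0 passed in limma or edgeR and 1 was lower at an unadjusted p under 0.05, with sums of 3730 and 3129 in WT and 3414 and 2779 in Q344X. For pigment epithelium and choroid, 3 of 8 tested genes rose (Rpe65, Tyr and Pmel) and the sums were 4222 and 4686 in WT and 5706 and 7312 in Q344X. The log2 fold change was above 0 in 7 of the 8, with Rgr and Mlana overlapping between the genotypes. Tyrp1 went the other way without passing, at 318 and 338 in WT and at 219 and 221 in Q344X (adjusted p = 0.0922, limma). The sums for corneal epithelium were 232 and 183 in WT and 65.3 and 70.1 in Q344X. Of its 3 tested genes 1 fell, Aldh3a1, at 164 and 90.2 in WT and at 22.8 and 25.9 in Q344X (adjusted p = 0.0182, limma), while Kera was at 2.08 and 3.01 in WT and at 0 in both Q344X libraries. Of 6 ganglion cell genes 2 rose (Sncg and Isl2), and of 4 astrocyte genes 1 rose (Pax2). Pax2 was rare, at 9.36 and 6.02 in WT and at 29.7 and 41.3 in Q344X. Gfap was the 1 astrocyte gene with a log2 fold change below 0 (-0.31 ± 0.18). It was below WT in both Q344X libraries without passing. None of 6 microglia genes passed in limma or edgeR, and 0 had an unadjusted p under 0.05. The part of these cell types in the collagen values was not tested.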

How the data were processed

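The signal deposited by the authors is gene counts divided by a size factor per library, for 52636 Ensembl genes. DESeq2 1.16.1, featureCounts, STAR, Trim Galore 0.4.4, FastQC and the build mm10 are named, without roles, per the submitters' processing notes; annotation and strand setting: not given in the sources used here. Per the labels' protocols, polyadenylated RNA was selected and libraries were directional. Symbols were paired by Ensembl identifier for 52403 genes, and positions and exon lengths are from GENCODE M21 (GRCm38). Differences were tested with limma 3.58.1 (R 4.3.3), two-sided, on log2(normalized count + 1), with variances moderated along a trend in the mean. Residual degrees of freedom were 2, prior ones 3.9. Values were whole multiples of the worth of 1 read, 100% within 0.1 of a whole number. That worth was 1.04 and 1.003 normalized counts in WT and 0.99 and 0.96 in Q344X. As an alternative, edgeR 4.0.16's quasi-likelihood test on these reads, with the deposited size factors, called 937 genes higher and 1532 lower. Promoter windows are from RefSeq.

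The members and lists were chosen with earlier results of these data known. Library values are given for each member past the threshold, the 4 highest by mean in each group and the paired chains, and in the lists for up to 3 called genes per direction with the largest change and the 2 highest by mean among the rest. The split by exon length was added after values were seen. The further alternatives used a pseudocount of 0.5 or 5, every gene above 0, a mean of at least 50, 75th percentile or quantile scaling, robust moderation, or 3 of the 4 libraries. On simulated data for this comparison (16639 genes), 186 of 192 genes changed by 2 on the log2 scale were recovered, with 7 unchanged genes called. The simulation gave every gene the same dispersion and held no shift of lens genes or of long transcripts in single libraries. Its recovery does not carry over to smaller changes or to the spread of these libraries. The genotype labels were not checked against the mutated gene, since gene-level counts do not show a stop mutation.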

Additional observations from a re-analysis of the deposited data

How the results depend on the processing

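Of the 20 called collagen genes, 0 changed direction in any alternative, 9 kept their call with each library left out, and 2 (Col6a3 and Col9a1) kept it in all. The 20 genes were the same in edgeR's test. Counts of chains that rose and fell, 13 and 7, were 2 and 1 with no filter and 6 to 16 and 3 to 12 with 1 library left out; the median of 0.40 became 0.16 at a minimum mean of 50 and 0.10 to 0.54 with 1 library left out. Over all genes, 919 rose and 1531 fell, against 153 and 383 with no filter and 388 to 2353 and 666 to 2973 with 1 library left out (fewest without WT replicate 1, most without Q344X replicate 1). More genes were tested with no filter, and a fit without 1 library rests on the spread of the intact pair. Genes not past the threshold that changed sign were Col6a6 under quantile normalization (0.051) and Timp3 under 75th percentile scaling (0.024). With 1 library left out, the log2 fold change ranged from -0.979 to 0.014 for Col11a1, -1.037 to 0.105 for Col24a1, -0.682 to 0.149 for Col27a1, -0.257 to 0.298 for Col3a1, -0.021 to 1.249 for Col5a2, -0.808 to 0.543 for Col6a6, -0.181 to 0.777 for Col25a1, -0.179 to 0.565 for Ddr1 and -0.107 to 0.097 for Timp3. No paired analysis was possible because the labels carry no replicate numbers; those used here follow accession order and only name the libraries. Reads limit the rare chains most: Col10a1 and Col6a5 had 8 or fewer reads per WT library.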
